A study of Mus musculus with 9 samples.

Results

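The synaptonemal complex genes described here are 8 of the 28052 genes in the deposited count matrix of XX, XO and XY mouse oocytes. They were taken by name, as Sycp1, Sycp2, Sycp3, Syce1, Syce2, Syce3, Tex12 and Trip13, by a rule that uses no measured value, although earlier results of these data were known when the genes were chosen. Each name matched 1 row, and all 8 genes are autosomal. A filter on low counts, which kept 10993 genes for testing, retained 6 of the 8 and left out Syce1 and Syce3.

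The synaptonemal complex holds homologous chromosomes together along their length during meiotic prophase. SYCP2 and SYCP3 form its lateral elements on the chromosome axes, SYCP1 forms the transverse filaments that bridge the axes, and SYCE1, SYCE2, SYCE3 and TEX12 form the central element. TRIP13 is an AAA+ ATPase that strips HORMA domain proteins from synapsed axes and also remodels the checkpoint protein MAD2. In female mice the complex is assembled before birth and taken apart as oocytes arrest in the dictyate stage, so that oocytes growing in follicles are already past the stage at which it is present.

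Each genotype had 3 samples, and each sample held the pooled RNA of 30 oocytes, 10 of them 50–55 µm and 20 of them 55–60 µm in diameter, from C57BL/6 females (C57BL/6J in the study's methods) whose age the labels give as 18 dpp. XX and XY females were littermates from B6 mothers and B6.YTIR fathers, which carry a Y chromosome on which some XY offspring develop ovaries. XO females carried the maternal X chromosome and came from a separate cross, B6 mothers with males carrying the Paf mutation that had been backcrossed from C3H/HeSnJ. The XO genotype and its breeding cannot be told apart. Ovaries were dissociated with collagenase and trypsin and oocytes were picked by size, so a sample is a pool of oocytes and not 1 animal. The triplicates are stated to be biological, but what the numbers 1 to 3 mark is not stated, and a number gives no order.

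Libraries were prepared with Smart-seq3. The method tags transcript ends with a unique molecular identifier (UMI), and the deposited counts are the 5′ UMIs of each gene. Levels are given in the authors' normalized CPM, the UMIs of a gene divided by the gene total of the sample and by a factor from the ERCC spike-in RNAs. The gene totals were between 2130145 and 3157338 UMIs. Among XO samples, XO1 stood apart, with a Spearman coefficient of 0.676 to XO2 and 0.616 to XO3 but 0.932 to XY1 in normalized CPM. Some results of members and the counts of listed genes are also given without XO1, but single listed genes are not. In the batch-regressed log2 values of the authors XO1 did not stand apart, with coefficients of 0.929 to XO2 and 0.96 to XO3 against 0.883 between XO2 and XO3. The study itself named XX1, XO2 and XY1 as the samples less like their replicates, from a heatmap of highly expressed and variable genes. All 15 listed oocyte markers were detected and held between 1.6 and 3.51% of UMIs, whereas the 10 granulosa cell markers found of 15 listed held between 0.00468 and 0.00966%. Listed markers of theca and stroma reached at most 0.000962% and of endothelium at most 0.0103%. The summed UMIs of 8 Y-linked genes were 1521 to 1635 in XY samples and 1 to 4 in XX and XO samples, so the genotype labels and the Y-linked reads went together in all 9 samples.

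The stretches before the start sites of 4 members are shown. Sycp1 was the most abundant member, Sycp3 and Trip13 were called between genotypes before but not after adjustment in the fit described below, and Sycp3 and Tex12 share a motif. Syce2, which was called in the same way and has the motif in its second window, is not shown. The stretches are RefSeq promoters of GRCm38.p6, written 5′ to 3′ on the strand of the gene and ending where the annotated gene begins. Capitals mark the letters GCGGGAA of an E2F-type site.
Sycp1, chr3:102936101-102936250, minus strand: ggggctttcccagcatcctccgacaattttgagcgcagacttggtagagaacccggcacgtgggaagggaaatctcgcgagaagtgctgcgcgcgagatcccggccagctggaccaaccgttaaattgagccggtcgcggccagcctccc
Sycp3, chr10:88459437-88459568, plus strand: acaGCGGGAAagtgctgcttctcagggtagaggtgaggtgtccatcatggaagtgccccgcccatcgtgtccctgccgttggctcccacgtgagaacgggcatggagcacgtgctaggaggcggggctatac
Tex12, chr9:50561326-50561418, minus strand: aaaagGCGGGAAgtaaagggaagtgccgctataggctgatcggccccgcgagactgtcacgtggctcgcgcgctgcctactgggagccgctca
Trip13, chr13:73937785-73937917, minus strand: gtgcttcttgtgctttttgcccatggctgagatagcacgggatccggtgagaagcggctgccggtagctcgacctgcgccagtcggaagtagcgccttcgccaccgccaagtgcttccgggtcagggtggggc

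All 8 members matched the promoter table, with 10 windows in all, since Syce2 and Syce3 have 2 start sites each. Within the 150 bases before the start, GCGGGAA was found on either strand in 3 of the 10 windows, those of Sycp3 and Tex12 and the second of Syce2, and in 2.59% of the 32851 promoters in the table. The letters GGGCGG, the core of a GC box, were found in 5 of the 10 windows and in 28.6% of all promoters. The other motifs searched were TATAAA, in 1 of the 10 windows and 7.57% of all promoters, CNCCTCAG, in 1 and 3.92%, and CANNTG, in 9 and 47.7%. The windows held between 2 and 20 CpG dinucleotides, against a median of 4 over all promoters. These matches describe the letters in a short window, and no binding was measured.

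The members spanned more than 3 orders of magnitude in level, and Sycp1 was far above the rest. Over the 9 samples, the mean was 1190 ± 1000 normalized CPM for Sycp1 (SD, n = 9), 83.6 ± 42.6 for Sycp2, 51.9 ± 14.3 for Syce2 and 39.0 ± 12.0 for Sycp3. Trip13 followed at 11.8 ± 4.35 normalized CPM, Tex12 at 3.95 ± 1.26, Syce1 at 1.21 ± 0.993 and Syce3 at 0.389 ± 0.362. Sycp1 therefore ranked 128 among the 28052 genes, with 99.5% of genes below it, whereas Syce3 ranked 18235. The ranges over the 9 samples did not overlap between Sycp1 and Sycp2, between Sycp3 and Trip13 or between Trip13 and Tex12, but they did overlap between the neighbours Sycp2, Syce2 and Sycp3 and between the neighbours Tex12, Syce1 and Syce3. Divided by the length of the longest coding transcript, levels were 347 ± 292 normalized CPM per kilobase for Sycp1, 33.3 ± 10.3 for Sycp3, 30.8 ± 8.45 for Syce2 and 14.6 ± 7.46 for Sycp2. On this per-length scale the order was Sycp1, Sycp3, Syce2, Sycp2, Tex12, Trip13, Syce1, Syce3, and 4 members changed place. A 5′ UMI counts an end of each molecule, so the undivided order is the one that counts molecules.

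**Figure D1:**
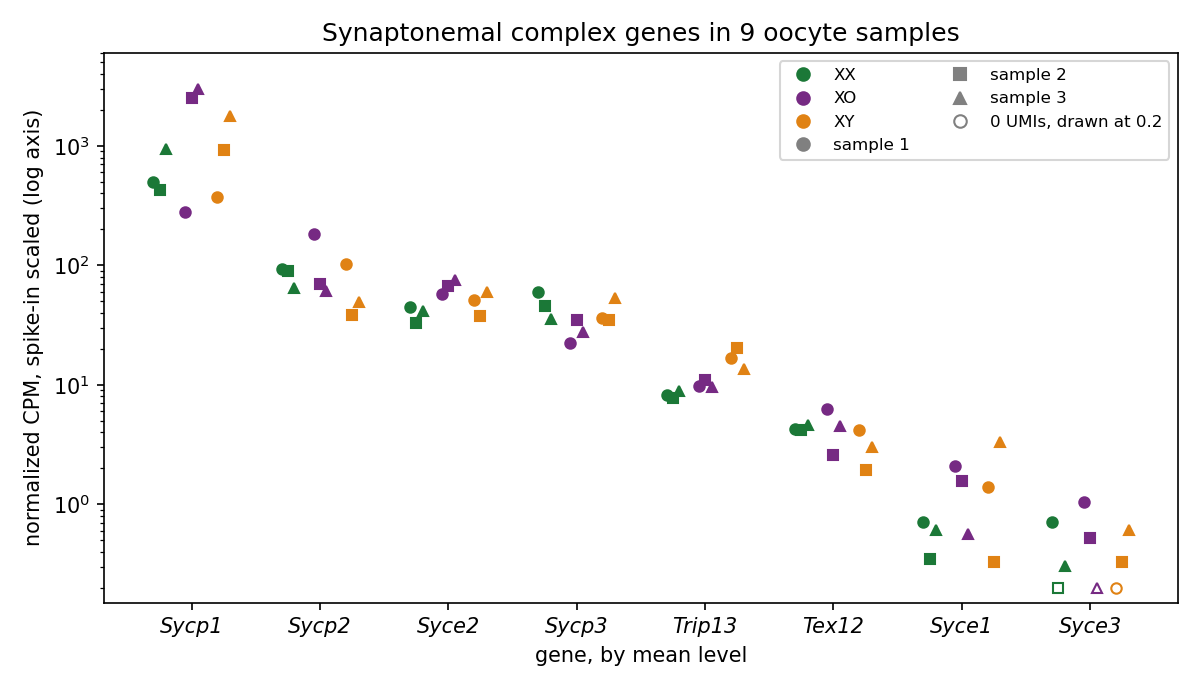
Level of each of the 8 genes in each of the 9 samples, in spike-in scaled normalized CPM on a log axis, with genotype by colour and sample number by shape. Sycp1 lies between 281 and 3000 normalized CPM, above every value of the other genes, and open symbols mark the 3 samples without a Syce3 UMI.

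Within a sample, Sycp1 alone held between 50.0% (XO1) and 94.4% (XO3) of the UMIs of the 8 genes together. The summed UMIs of the 8 genes were 1997, 1739 and 3596 in XX samples, 1086, 5229 and 5639 in XO samples and 1262, 3249 and 6490 in XY samples. Hence the sum over the complex followed Sycp1 and says little about the other 7 genes. As a share of these UMIs, Sycp2 held between 1.93 and 32.4%, and it was highest in XO1, where the share of Sycp1 was lowest.

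Differences between genotypes were tested with edgeR on the UMI counts, with all 9 samples in 1 fit and the spike-in scaling of the authors, and a gene was called at an unadjusted p of 0.05, the threshold the study used. In XX against XO, 2 of the 6 tested members were called, Sycp3 as higher and Syce2 as lower in XX, where 18.1% of all tested genes were called, 1.4% as higher and 16.7% as lower. In XX against XY, 1 of 6 was called, Trip13 as lower in XX, against 5.8% of all tested genes and 4.39% in this direction. In XY against XO, 1 of 6 was called, again Trip13 and as higher in XY, against 9.93% of all tested genes and 1.69% in this direction. With 6 tested genes, these counts lie within 1 gene of the background share in each contrast, and in this fit no member passed the Benjamini-Hochberg adjustment over the 10993 genes, which 0.0%, 0.0819% and 0.0364% of genes passed in the same order. With the gene-based TMM factors described next, 1 member was called in XX against XO, Sycp3, 1 in XX against XY, Trip13, and 2 in XY against XO, Sycp3 and Trip13, against 11.9%, 5.35% and 9.07% of all tested genes. By direction, these shares were 5.9% higher and 6.02% lower in XX against XO, 2.58% and 2.77% in XX against XY, and 5.39% and 3.68% in XY against XO, so calls as higher in XX or XY than in XO were less rare than with spike-in scaling. The contrasts share samples, since each genotype enters 2 of them.

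With spike-in scaling the median of all tested genes was negative in each contrast, and the differences of the members are read against this shift. The cause of the shift was not tested. Spike-ins held between 0.204% (XX3) and 0.862% (XY1) of the UMIs, whereas the paper planned for a larger share of the reads. The median log2 fold change of all tested genes was -0.46 in XX against XO, -0.19 in XX against XY and -0.30 in XY against XO. When the factors were taken from the genes instead (TMM, the trimmed mean of M values), the medians were -0.03, -0.04 and -0.02. Such factors centre the genes by construction. With scaling to the spike-in total the medians were 0.42, 0.49 and -0.11. In the main fit 8.24% of tested genes were called as lower and 1.69% as higher in XY than in XO. The paper, with limma and surrogate variables, reported the opposite balance, with more genes higher in XY. It also reported many genes higher in XX than in XO, where 1.4% were called as higher here and 16.7% as lower. The median over the 6 members tested is not used, since the filter chose them.

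**Figure D2:**
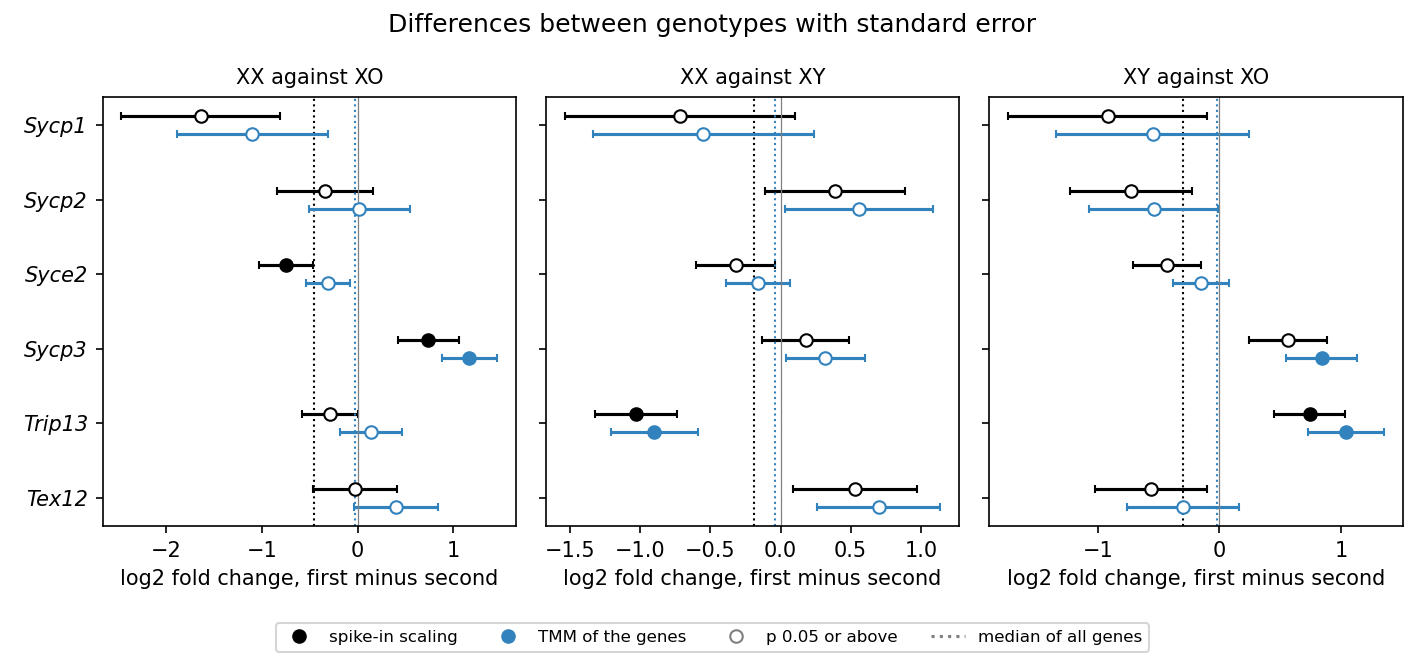
Log2 fold change and standard error of the 6 tested genes in the 3 contrasts, from edgeR with spike-in scaling (black) or TMM factors of the genes (blue). Filled symbols have an unadjusted p below 0.05 and dotted lines are the medians of all tested genes. Sycp3 lies to the right in XX against XO and Trip13 to the left in XX against XY under both scalings, whereas Syce2 in XX against XO is filled only with spike-in scaling.

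Sycp1 (ENSMUSG00000027855.13, chr3:102818499-102936100, minus strand) encodes the transverse filament protein that zips the axes together. Its level was 499, 429 and 940 normalized CPM in XX1, XX2 and XX3, 281, 2520 and 3000 in XO1, XO2 and XO3, and 374, 924 and 1780 in XY1, XY2 and XY3. XO samples thus held both the lowest level and the highest ones, and all genotypes overlapped. The counts behind these levels were large, between 543 and 5885 UMIs, so counting error was a small part of the 10.7-fold range. Across the 9 samples the SD of log2 levels was 1.25, which was higher than that of 93.0% of tested genes.

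For XX against XO, the log2 fold change of Sycp1 was -1.64 ± 0.83 (SE), with an edgeR p of 0.079 and an adjusted p of 0.315. Without XO1 it was -2.15 ± 0.56, with an edgeR p of 0.0027 and an adjusted p of 0.0181, and for XY against XO it became -1.43 ± 0.56 with an edgeR p of 0.0257 and an adjusted p of 0.103. With XO1 kept, Sycp1 in XX against XO was also called without the filter on low counts (-1.64, edgeR p of 0.00321), by DESeq2 with spike-in factors (-1.64, p of 0.0432) and with surrogate variables. The call of Sycp1 therefore depended on XO1, on the filter and on the model. In each genotype Sycp1 was highest in the sample numbered 3, as were 2833 of the 10993 tested genes (25.8%). In the batch-regressed log2 values of the authors, from which surrogate variables had been removed, Sycp1 ran from 8.85 to 10.5. There XO3 was the lowest sample, although it had the highest normalized CPM.

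Sycp2 (ENSMUSG00000060445.11, chr2:178345293-178407685, minus strand) encodes a large lateral element protein that binds SYCP3. Its level was 94.0, 89.6 and 64.9 normalized CPM in XX1 to XX3, 182, 70.3 and 61.5 in XO1 to XO3, and 103, 38.1 and 48.9 in XY1 to XY3. In each genotype the sample numbered 1 was highest, which held for 18.4% of tested genes, and XO1 was highest of all. The genotypes overlapped, and no contrast of Sycp2 was called without surrogate variables and with all samples. The log2 fold change was -0.34 ± 0.50 for XX against XO, 0.39 ± 0.50 for XX against XY and -0.73 ± 0.50 for XY against XO, with edgeR p-values of 0.516, 0.457 and 0.181 and adjusted p-values of 0.722, 1.0 and 0.607. With XY1 left out, XY against XO was -1.27 with an edgeR p of 0.0378, but with XO1 left out it was -0.06 with an edgeR p of 0.873.

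Sycp3 (ENSMUSG00000020059.9, chr10:88459569-88473236, plus strand) encodes the lateral element protein that compacts meiotic axes and is the usual stain for them. Its level was 59.8, 45.9 and 35.6 normalized CPM in XX1 to XX3, 22.3, 34.6 and 27.7 in XO1 to XO3, and 36.3, 35.2 and 53.4 in XY1 to XY3. Every XO sample was below every XX and XY sample, although XO2, at 34.6, was next to XY2, at 35.2. Such a position of the 3 XO samples was found for 0.71% of tested genes with spike-in scaling and for 3.78% with TMM factors of the genes.

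The log2 fold change of Sycp3 in XX against XO was 0.74 ± 0.32, or 1.67-fold, with an edgeR p of 0.0428 and an adjusted p of 0.265. With TMM factors of the genes it was 1.17 ± 0.29, with an edgeR p of 0.00253 and an adjusted p of 0.236. The call was lost when any of XX1, XX2, XO1, XO3, XY1 or XY2 was left out, with log2 fold changes of 0.53 to 0.76 and edgeR p-values of 0.166, 0.0799, 0.091, 0.0859, 0.0541 and 0.0548. In XY against XO, the log2 fold change was 0.56 ± 0.32 and was not called (edgeR p of 0.107, adjusted p of 0.543), but with TMM factors it was 0.84 ± 0.29 (edgeR p of 0.0154, adjusted p of 0.504). XX and XY differed by 0.18 ± 0.31, with an edgeR p of 0.583 and an adjusted p of 1.0.

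The counts of Sycp3 could not be separated from those of Chpt1, a phospholipid synthesis gene on the opposite strand that spans all of Sycp3. Several annotated Chpt1 transcripts end in exons that overlap the last exons of Sycp3. Chpt1 had 195, 157 and 148 UMIs in XX1 to XX3, 55, 82 and 64 in XO1 to XO3 and 95, 144 and 228 in XY1 to XY3. Sycp3 had 168, 131 and 117, 43, 67 and 49, and 78, 108 and 177 UMIs in the same samples. The ratio of Sycp3 to Chpt1 UMIs was thus between 0.75 and 0.862 in all 9 samples. Across samples their log2 levels had a Pearson coefficient of 0.991 (n = 9), the highest of any gene with Sycp3.

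A chi-square statistic of the counts of both genes over the 9 samples was 1.08 with 8 degrees of freedom, where independent counting alone would give about 8. Of 4924 genes with at least 469 UMIs, no gene other than Chpt1 came closer to Sycp3 than 5.28. Among 966 pairs of genes with overlapping exons on opposite strands and at least 90 UMIs each, 27 (2.8%) had a statistic of 1.08 or less, and the median was 18.5. Chpt1 itself gave a log2 fold change of 0.66 ± 0.30 in XX against XO, with an edgeR p of 0.055 and an adjusted p of 0.282. The reads were aligned as stranded, but whether the UMI counting used the strand is not stated. Therefore the level of Sycp3 and its difference between genotypes cannot be told apart from those of Chpt1.

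**Figure D3:**
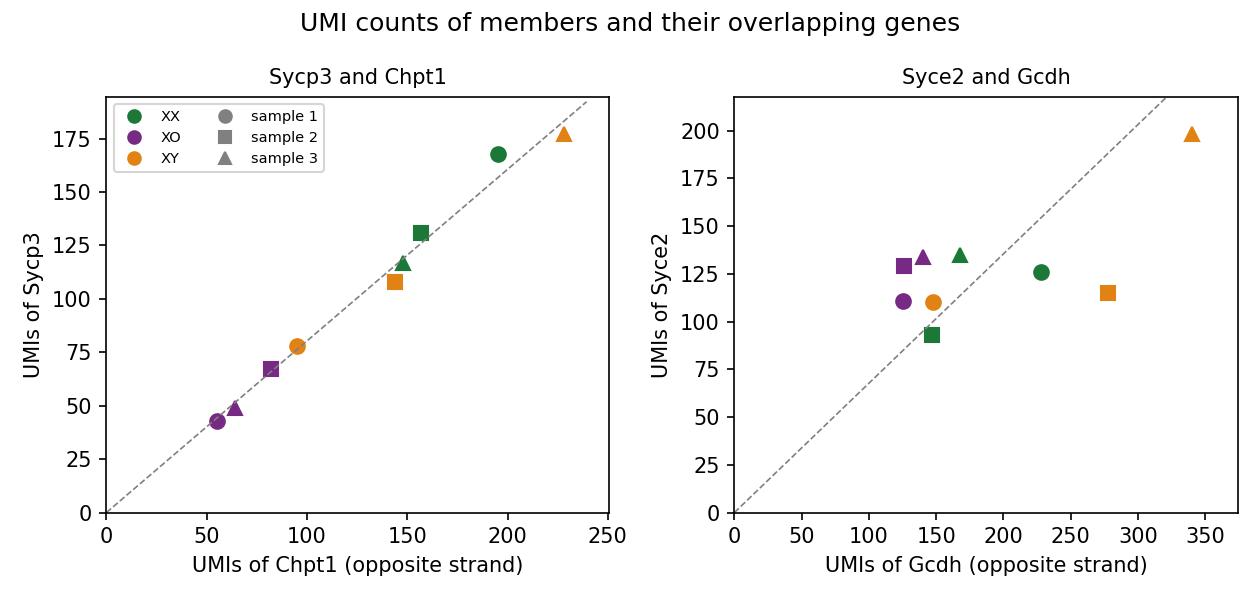
UMIs of Sycp3 against Chpt1 and of Syce2 against Gcdh, the gene on the opposite strand, in each of the 9 samples. The dashed line is the ratio of the summed UMIs. Sycp3 stays between 0.75 and 0.862 of Chpt1 in all samples, whereas Syce2 lies between 0.414 and 1.02 of Gcdh.

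Syce2 (ENSMUSG00000003824.12, chr8:84872111-84888221, plus strand) encodes a central element protein that assembles into fibres with TEX12. Its level was 44.9, 32.6 and 41.1 normalized CPM in XX1 to XX3, 57.5, 66.7 and 75.6 in XO1 to XO3, and 51.1, 37.4 and 59.8 in XY1 to XY3. All XO samples were above all XX samples, and XY samples overlapped both. The log2 fold change in XX against XO was -0.75 ± 0.28, or 1.68-fold higher in XO, with an edgeR p of 0.0236 and an adjusted p of 0.229, when the median of all genes was -0.46. With TMM factors of the genes it was -0.31 ± 0.23 and was not called (edgeR p of 0.212, adjusted p of 0.631), and with scaling to the spike-in total its sign turned, to 0.15 ± 0.73.

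The difference of Syce2 between XX and XO beyond the median of all genes was thus smaller than that median. Without XO1 the log2 fold change of Syce2 was -0.85, with an edgeR p of 0.0111 and an adjusted p of 0.0457, whereas without XX2, XX3 or XO3 the call was lost, at -0.63, -0.78 and -0.65 and edgeR p-values of 0.0968, 0.0516 and 0.0689. XX against XY gave -0.32 ± 0.28 and XY against XO gave -0.43 ± 0.28, with edgeR p-values of 0.275 and 0.156 and adjusted p-values of 1.0 and 0.591. Gcdh, which overlaps Syce2 on the opposite strand without sharing exons, had a Pearson coefficient of 0.355 with it (n = 9).

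Tex12 (ENSMUSG00000032065.6, chr9:50556819-50561325, minus strand) encodes the partner of SYCE2 in the central element. It was sparse, with 12, 12 and 15 UMIs in XX1 to XX3, 12, 5 and 8 in XO1 to XO3 and 9, 6 and 10 in XY1 to XY3. In normalized CPM these were 4.27, 4.20 and 4.57, then 6.21, 2.58 and 4.52, then 4.18, 1.95 and 3.02. XX samples were close together, and all were above the XY samples, although the lowest, at 4.20, was next to XY1, at 4.18. No contrast of Tex12 was called, with log2 fold changes of -0.03 ± 0.44 for XX against XO, 0.53 ± 0.44 for XX against XY and -0.56 ± 0.46 for XY against XO (edgeR p of 0.952, 0.261 and 0.255, adjusted p of 0.978, 1.0 and 0.65). Il18, which overlaps Tex12 on the opposite strand, had 19 to 40 UMIs per sample. Whether the 2 genes share exons was not checked, since Tex12, at 89 UMIs in all, fell below the 90 required. Their log2 levels had a Pearson coefficient of 0.709 (n = 9), and the chi-square statistic of their counts was 3.32 with 8 degrees of freedom. A separation of the counts of Tex12 from those of Il18 was therefore not tested.

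Syce1 (ENSMUSG00000025480.5, chr7:140777229-140787852, minus strand) and Syce3 (ENSMUSG00000078938.9, chr15:89390174-89410503, minus strand), both of which encode central element proteins that bind SYCP1, were near the lowest detectable amount. Syce1 had 2, 1 and 2 UMIs in XX1 to XX3, 4, 3 and 1 in XO1 to XO3 and 3, 1 and 11 in XY1 to XY3. XY3 thus held 11 of its 28 UMIs. Syce3 had 3 UMIs in total in each genotype and none in XX2, XO3 and XY1. The limit that a count of 0 allows is 3 UMIs over the 3 samples of a genotype, equal to 0.335 normalized CPM for XX, 0.532 for XO and 0.351 for XY oocytes, so Syce3 was at this limit in all genotypes. No fold is given for it, and a difference between genotypes was not detectable at this depth. The limit covers counting error only.

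Trip13 (ENSMUSG00000021569.10, chr13:73911347-73937784, minus strand) had the smallest unadjusted p of the tested members with spike-in scaling, in XX against XY. With TMM factors of the genes the smallest was that of Sycp3 in XX against XO (edgeR p of 0.00253). The level of Trip13 was 8.19, 7.70 and 8.84 normalized CPM in XX1 to XX3, 9.84, 10.9 and 9.60 in XO1 to XO3, and 16.7, 20.5 and 13.6 in XY1 to XY3. Every XY sample was above every XX and XO sample. This position of the 3 XY samples was found for 215 of the 10993 tested genes (1.96%), and for 2.40% with TMM factors of the genes. The UMIs behind the levels were 23, 22 and 29 in XX, 19, 21 and 17 in XO and 36, 63 and 45 in XY.

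By genotype, Trip13 averaged 8.24 ± 0.568 normalized CPM for XX oocytes, 10.1 ± 0.669 for XO oocytes and 16.9 ± 3.47 for XY oocytes (SD, n = 3 each). In XX against XY the log2 fold change of Trip13 was -1.03 ± 0.29, or 2.05-fold higher in XY, with an edgeR p of 0.00502 and an adjusted p of 0.473. It was called whichever sample was left out, with log2 fold changes of -1.17 to -0.87, and in 19 of 20 alternative settings. The exception was scaling to the spike-in total, with -0.21 ± 0.69 and an edgeR p of 0.764.

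In XY against XO the log2 fold change of Trip13 was 0.74 ± 0.29, or 1.67-fold higher in XY, with an edgeR p of 0.0285 and an adjusted p of 0.485. With TMM factors of the genes it was 1.04 ± 0.31, with an edgeR p of 0.00816 and an adjusted p of 0.491. The call was lost without XO1, XO3, XY1 or XY2, at 0.72, 0.71, 0.75 and 0.58 and edgeR p-values of 0.0521, 0.0645, 0.0548 and 0.108. With the sample number as a block, the log2 fold change was 0.73 ± 0.29 and stayed called, with an edgeR p of 0.0315 and an adjusted p of 0.263. The deviations of same-numbered XY and XO samples correlated positively, and the block raised the share of all genes called from 9.93% to 16.6%. XX and XO differed by -0.29 ± 0.29 (edgeR p of 0.347, adjusted p of 0.595), although all XX samples were below all XO samples, and with TMM factors of the genes the sign turned, to 0.14 ± 0.32.

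**Figure D4:**
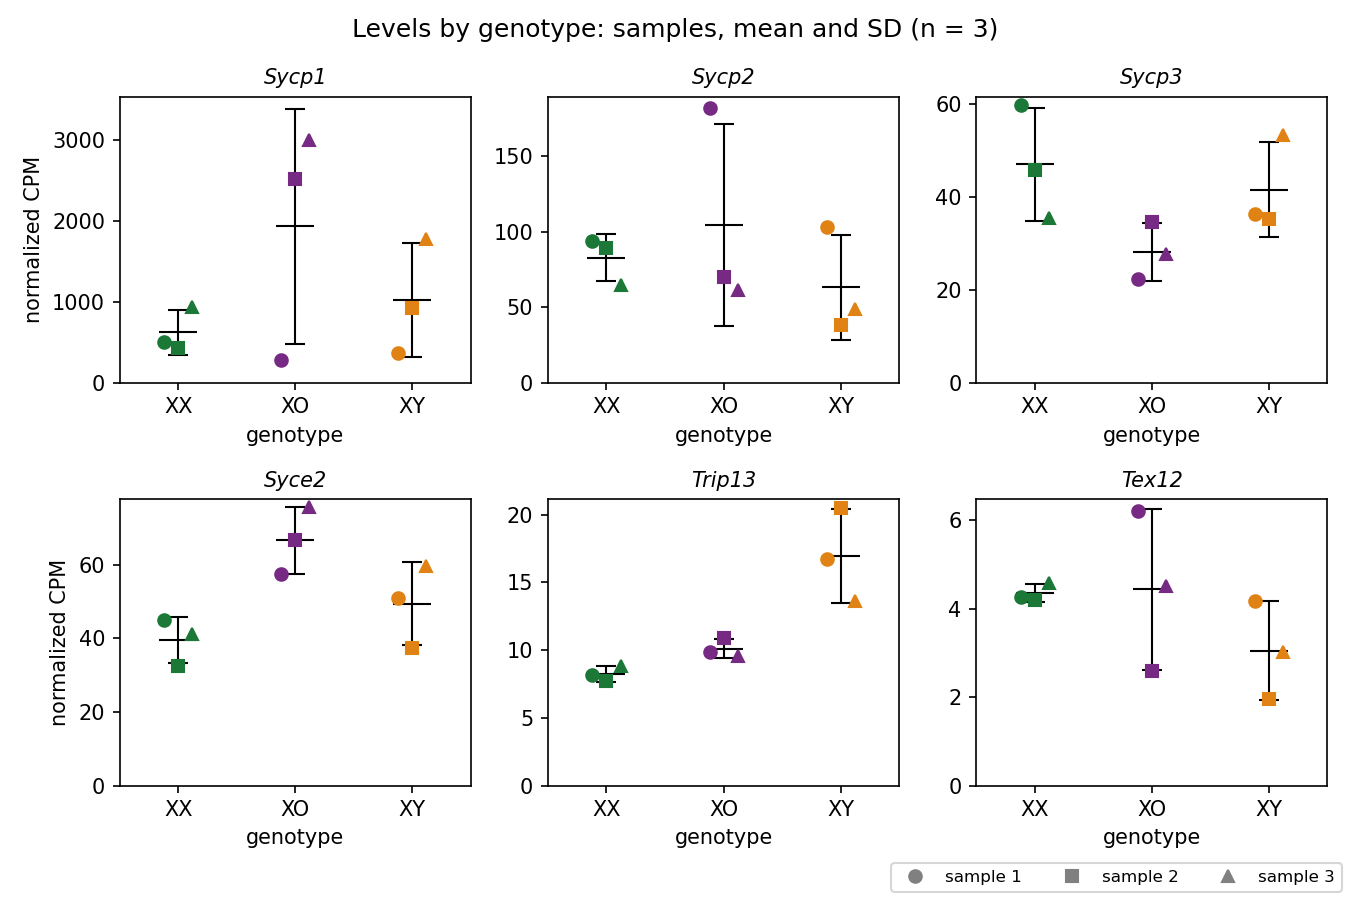
Normalized CPM of the 6 tested genes by genotype on linear axes that include 0, with each sample as a point, the mean as a bar and the SD as whiskers (n = 3). XY samples of Trip13, at 13.6 to 20.5, are all above XX and XO samples, and XO samples of Sycp3, at 22.3 to 34.6, are all below XX and XY samples.

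The study itself fitted its expression values with surrogate variables, and with 2 of these added to the edgeR fit the calls of 5 members changed. In this fit 2 of 6 members were called in XX against XO, 3 in XX against XY and 2 in XY against XO, against 14.3%, 20.4% and 18.2% of all tested genes, and the medians of all genes were 0.01, -0.01 and 0.02. After adjustment 0, 3 and 0 members passed, against 1.59%, 6.98% and 2.85% of all tested genes. In XX against XY, Sycp1 was lower in XX, at -0.63 ± 0.15, and Sycp2 higher, at 0.76 ± 0.19, with edgeR p-values of 0.000324 and 0.000655 and adjusted p-values of 0.0101 and 0.0164. Trip13 was at -1.19 ± 0.28 in the same contrast, with an edgeR p of 0.000452 and an adjusted p of 0.0127. In XX against XO, Sycp1 was at -0.76 ± 0.22, with an edgeR p of 0.0024 and an adjusted p of 0.0842, Sycp3 at 1.12 ± 0.38, with an edgeR p of 0.00778 and an adjusted p of 0.148, and Syce2, at -0.16 ± 0.28, was no longer called. In XY against XO, Sycp2 at -0.58 ± 0.20 and Sycp3 at 0.81 ± 0.28 were called (edgeR p of 0.00783 and 0.00949, adjusted p of 0.111 and 0.123) and Trip13, at 0.51 ± 0.34, was not. The surrogate variables are estimated from the same counts, so these p-values do not carry the error of the estimate.

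Counting samples that did not overlap, 3 of the 6 tested members were apart in XX against XO, Sycp3 above and Syce2 and Trip13 below in XX, where 2.79% of tested genes were above and 13.6% below. In XX against XY, Tex12 was above and Trip13 below, against 4.15% and 11.7% of tested genes. In XY against XO, Sycp3 and Trip13 were above and no member below, against 3.88% and 6.34% of tested genes. Trip13 overlapped in XX against XO with TMM factors of the genes, and the other members apart were the same. The shares of tested genes above and below were then 10.1% and 4.34% in XX against XO, 8.0% and 7.52% in XX against XY, and 8.62% and 2.96% in XY against XO.

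The members did not vary together across samples. Over the 9 samples, which share scaling and depth, the Pearson coefficient of log2 levels was -0.693 between Sycp1 and Sycp2, 0.806 between Sycp2 and Tex12, 0.572 between Sycp1 and Syce2 and -0.323 between Sycp2 and Sycp3. These were -0.889, 0.827, 0.375 and -0.00986 with TMM factors of the genes, and the 15 pairs of tested members ran from -0.693 to 0.806 with spike-in scaling. Sycp1 and Sycp2 thus ran against each other over the samples. In each genotype Sycp1 was highest in the sample numbered 3 and Sycp2 in the sample numbered 1, as were 25.8% and 18.4% of tested genes. XO1 had the lowest level of Sycp1 and the highest of Sycp2. The UMI ratio of Sycp1 to Sycp2 within samples, which needs no scaling, was 1.54 in XO1 and 48.8 in XO3. The UMI ratio of Syce2 to Sycp3 was 0.71 to 1.15 in XX, 1.06 to 1.41 in XY and 1.93 to 2.73 in XO samples, with every XO sample above the other 6. The share of other gene pairs in such a position is not given. The counts of Sycp3 in this ratio cannot be told apart from those of Chpt1.

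The genes whose levels were most like those of a member were different for each of the 5 members compared, those whose mean reached 10 normalized CPM, and Tex12, Syce1 and Syce3 were not compared. Among 7275 genes whose mean level reached 10 normalized CPM, the nearest were Gm44087, Pappa2 and Pcgf3 for Sycp1, with Pearson coefficients of 0.998 to 0.999 over the 9 samples. For Sycp2 they were Arl8b, Slc12a2 and Cpeb4 (0.961 to 0.975), and for Syce2 they were Lnx1, Atg5 and Wwc2 (0.971 to 0.977). After Chpt1, those for Sycp3 were C430002N11Rik (0.896) and Ppa1 (0.887). For Trip13 they were the Y-linked Uty (0.92) and Zfy2 (0.908), which had no UMIs in XX and XO samples, and Dnajc5g (0.918), on chromosome 5. With TMM factors of the genes, 7 of these 15 genes remained among the 3 nearest, but neither Uty nor Zfy2 did.

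Other genes of meiotic prophase were taken from a list of 51 in 7 groups, of which 48 were in the matrix and 38 were tested. In XX against XO, 3 were higher and 7 lower in XX (edgeR, unadjusted p), in XX against XY 2 were higher and 3 lower, and in XY against XO 1 was higher and 3 lower in XY. The share of all tested genes called was 18.1%, 5.8% and 9.93% in these contrasts, and no listed gene passed the adjustment in this fit. The median log2 fold change of the 38 genes was -0.44, -0.28 and -0.18, against -0.46, -0.19 and -0.30 over all tested genes. With TMM factors of the genes, 4 were higher and 4 lower in XX against XO, and without XO1 16 of the listed genes were called in XX against XO, 9 in XX against XY and 12 in XY against XO, where 36.9%, 11.1% and 32.1% of all genes tested without XO1 were called. In XX against XY, 2 were called without XX1 or XY2 and 3 without XY3, against 4.77%, 4.4% and 4.25% of all genes. The count in XY against XO was 2 without XO2, XO3 or XY2 and 1 without XY1, against 6.61%, 3.74%, 3.86% and 5.42% of all genes.

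Among the partners and targets of TRIP13, 3 of 4 genes were lower in XX than in XO, with either scaling, against 16.7% of all tested genes with spike-in scaling and 6.02% with TMM factors of the genes. Mad2l1, which encodes the checkpoint protein MAD2, was at 70.2, 61.6 and 80.4 normalized CPM in XX1 to XX3, 137, 250 and 413 in XO1 to XO3 and 76.7, 74.2 and 120 in XY1 to XY3. All XO samples were above all others, a position found for 4.32% of tested genes with spike-in scaling and for 1.47% with TMM factors of the genes. The log2 fold change of Mad2l1 was -1.91 ± 0.42 in XX against XO (edgeR p of 0.00122, adjusted p of 0.203) and -1.56 ± 0.42 in XY against XO (edgeR p of 0.00413, adjusted p of 0.485). Hormad2, which encodes a HORMA domain protein of unsynapsed axes, was at 4.90 to 11.6 normalized CPM in XX and 11.9 to 37.8 in XO, with a log2 fold change of -1.65 ± 0.49 (edgeR p of 0.00732, adjusted p of 0.203). Mad2l1bp, whose product p31comet brings MAD2 to TRIP13, had 1, 75 and 121 UMIs in XO1, XO2 and XO3 and between 1 and 21 in the other samples. Its difference, with an edgeR p of 0.0113 and an adjusted p of 0.203 in XX against XO and of 0.0242 and 0.485 in XY against XO, therefore lay in XO2 and XO3. Hormad1 was not called in any contrast with either scaling, but with the sample number as a block it was at -0.86 in XX against XY, with an edgeR p of 0.0431 and an adjusted p of 0.526.

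Of 10 crossover factors, Rnf212, the gene of a SUMO ligase, was the most abundant, at a mean of 237 normalized CPM, and was called as lower in XX than in XO. Its log2 fold change was -1.53 ± 0.64, with an edgeR p of 0.0405 and an adjusted p of 0.263, but XO1, at 87.0 normalized CPM, was the lowest of all samples. Msh4, a MutS homologue that marks crossover sites, was at 17.8, 14.4 and 15.8 normalized CPM in XX1 to XX3, at most 20.2 in XO samples and at 52.1, 27.3 and 23.8 in XY1 to XY3. Like Trip13, it was higher in all XY samples than in any other, a position found for 1.96% of tested genes with spike-in scaling and 2.40% with TMM factors. The log2 fold change of Msh4 was -1.10 ± 0.34 in XX against XY (edgeR p of 0.01, adjusted p of 0.57) and 0.96 ± 0.35 in XY against XO (edgeR p of 0.0201, adjusted p of 0.485). Ankrd31 and Terb1, which act on axes and telomeres, complete the genes lower in XX than in XY, and were named after their values were seen, since they fell outside the naming rule. Ankrd31 was at 2.10 to 2.85 normalized CPM in XX and 6.64 to 12.1 in XY, and Terb1 at 23.8 to 32.8 in XX and 41.4 to 73.9 in XY. Rnf212, Stag3 and Ankrd31, with TMM factors of the genes, were no longer called in XX against XO, at -1.01, -0.98 and -0.98 against -1.53, -1.47 and -1.37 with spike-in scaling. Terb1 was no longer called in XX against XY, at -0.80 against -0.95, nor Syce1l in XY against XO, at -1.0 against -1.30.

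The Xlr genes are X-linked relatives of Sycp3. Of 10 tested, 3 were called as higher in XX than in XO and 2 of these also as higher than in XY, and all 3 belong to the Xlr4 group. Of all tested genes, 1.4% and 1.41% were called in these directions. The shares in this paragraph are over all tested genes, and the share among X-linked genes alone is not given. The paper reports that most X-linked genes had higher levels in XX than in XO or XY oocytes. Whether the Xlr4 genes differ from other X-linked genes was not tested. Xlr4c was at 171, 132 and 132 normalized CPM in XX1 to XX3, 52.3, 83.8 and 69.4 in XO1 to XO3 and 86.4, 88.5 and 83.6 in XY1 to XY3, with a log2 fold change of 1.08 ± 0.28 in XX against XO (edgeR p of 0.00318, adjusted p of 0.203) and 0.75 ± 0.27 in XX against XY (edgeR p of 0.022, adjusted p of 0.714). Xlr4b gave 0.86 ± 0.26 and 0.71 ± 0.26 in the same contrasts (edgeR p of 0.00902 and 0.0235, adjusted p of 0.203 and 0.726). Every XX sample was above every XO and XY sample for both genes. Such a position was found for 1.29% of tested genes with spike-in scaling and for 3.7% with TMM factors of the genes. With TMM factors, Xlr5c was also called in XX against XO, Xlr4a in XX against XY and Xlr4c in XY against XO. All were higher in the first genotype (edgeR p of 0.033, 0.0316 and 0.0368), as were 5.9%, 2.58% and 5.39% of all tested genes. Xlr5a, the most abundant, at a mean of 881 normalized CPM, was not called. Copies of this family are nearly identical, and how the counting split their reads is not stated, so the values of single copies are uncertain.

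In the remaining groups, Syce1l, the gene of a relative of SYCE1, was lower in XX and in XY than in XO. It was at 8.80, 16.5 and 15.8 normalized CPM in XO1 to XO3, against 3.50 to 6.06 in XX and 2.32 to 9.06 in XY samples. The log2 fold change was -1.50 ± 0.50 in XX against XO, with an edgeR p of 0.0137 and an adjusted p of 0.207, and -1.30 ± 0.49 in XY against XO, with an edgeR p of 0.026 and an adjusted p of 0.485. Stag3, the meiotic cohesin subunit, had a log2 fold change of -1.47 ± 0.59 in XX against XO, with an edgeR p of 0.0325 and an adjusted p of 0.248. It was at 1.75 to 3.05 normalized CPM in XX samples and at 2.07, 7.75 and 11.9 in XO1 to XO3, so the difference lay in XO2 and XO3. At a mean of 4.33 normalized CPM, Stag3 fell outside the naming rule. Sun1, the nuclear envelope protein that holds meiotic telomeres, ranged from 78.2 to 1060 normalized CPM and was not called, and neither were Sycp2l, a relative of Sycp2, or Skp1a, a subunit of SCF ubiquitin ligases, at means of 42.3 and 6760 normalized CPM. None of the 4 tested genes for removal and turnover of the complex was called by edgeR in any contrast, at the unadjusted or the adjusted threshold and with either scaling.

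**Figure D5:**
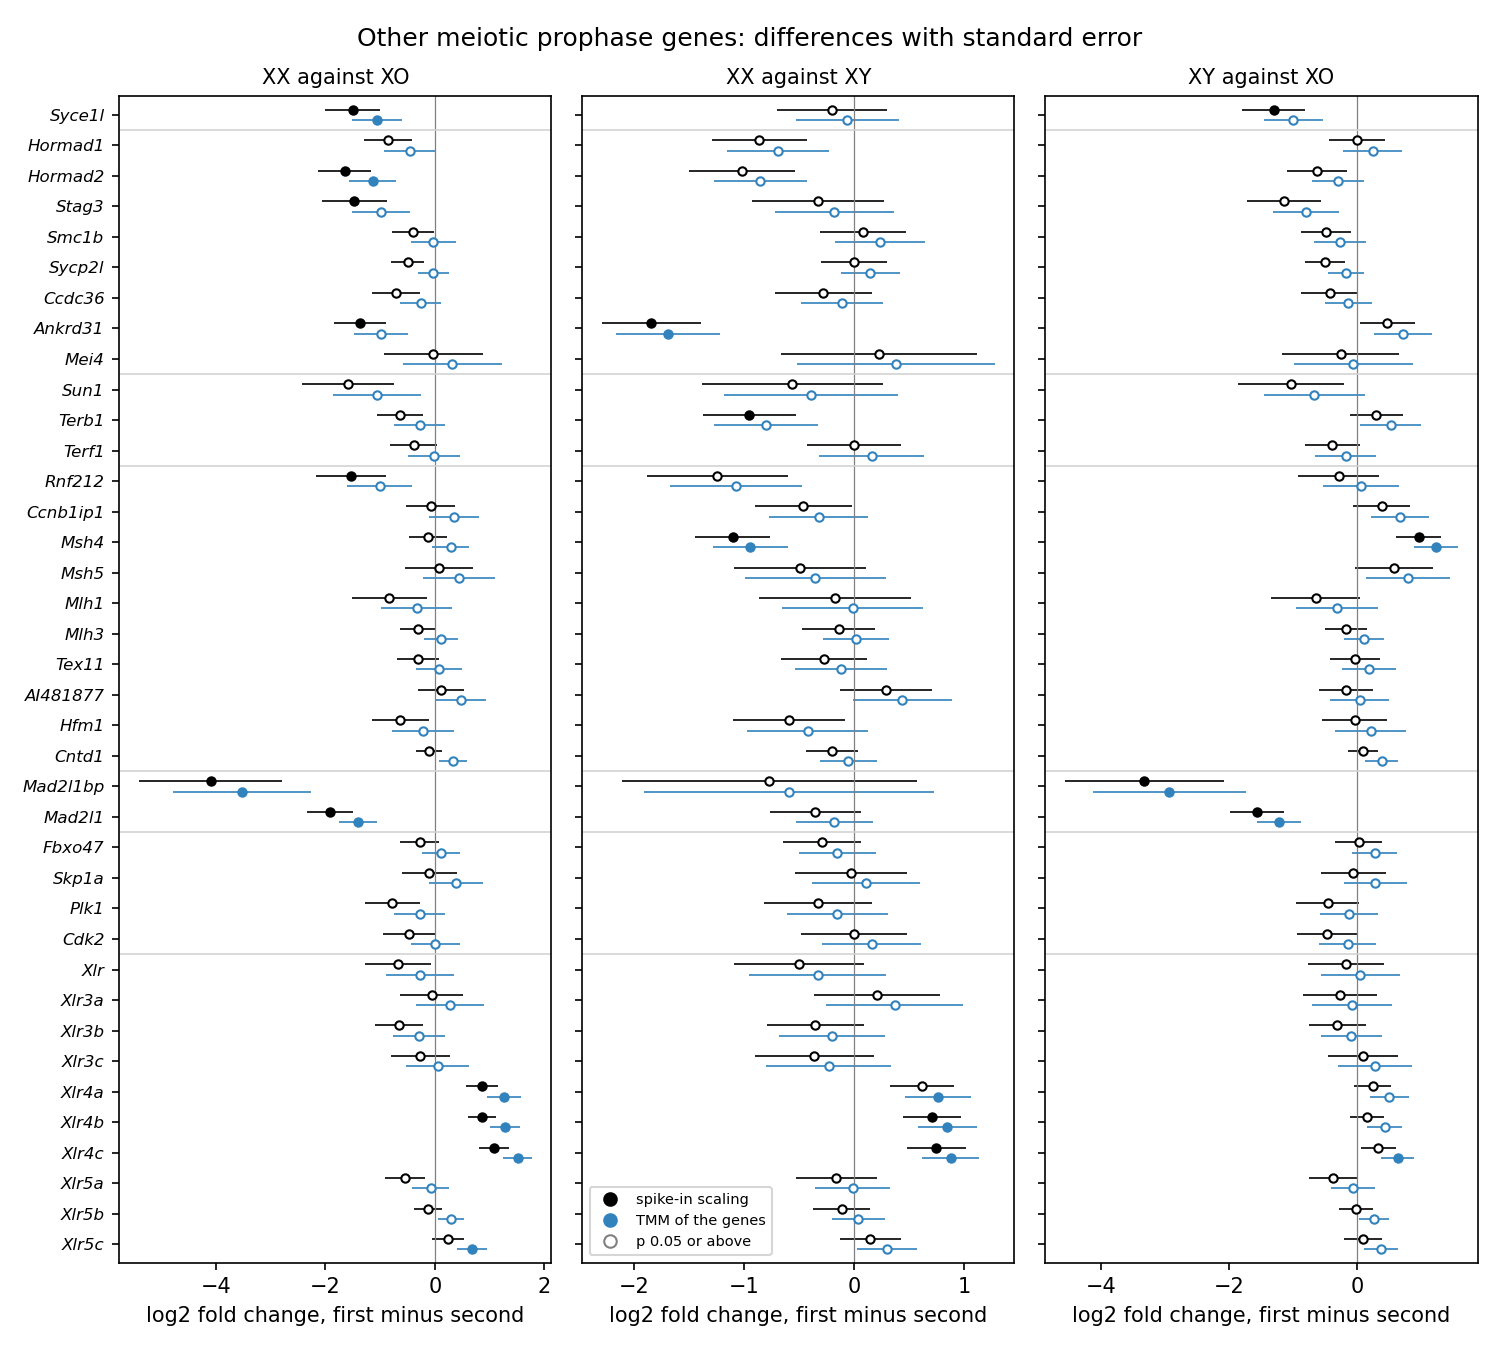
Log2 fold change and standard error of the 38 tested genes of meiotic prophase in the 3 contrasts, from edgeR with spike-in scaling (black) or TMM factors of the genes (blue), with grey lines between the groups and filled symbols for an unadjusted p below 0.05. Mad2l1, Mad2l1bp and Xlr4c are filled in XX against XO under both scalings, at -1.91, -4.10 and 1.08 with spike-in scaling.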

How the data were processed

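RNA of 9 samples was analysed, 3 each of XX, XO and XY oocytes. The authors aligned stranded Smart-seq3 reads with HISAT2 to GRCm38 and Gencode transcripts and deposited UMI counts per gene, a signal scaled with ERCC spike-ins (normalized CPM), and log2 values with surrogate variables regressed out. The normalized CPM were recomputed from the counts with TMM factors of the spike-ins, with a largest relative difference of 5.01e-15. The XO column without a number was taken as XO1.

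Counts were tested with edgeR 4.0.16 (filterByExpr, 1 mean per genotype, quasi-likelihood F test, two-sided), with Benjamini-Hochberg adjustment over 10993 genes, after the script had been tested on simulated data. p-values measure the spread between the pools. Alternatives were 18 planned settings, which used DESeq2 1.42.0, limma 3.58.1 and sva 3.50.0 among others, and 2 settings chosen after seeing the data. The deviations of same-numbered XY and XO samples from their means correlated at 0.83, 0.278 and 0.773. XO2 correlated better with XY3, at 0.721, than with XY2, so the data do not settle whether the numbers pair samples. The block by sample number is therefore an alternative only. All 8 members are named. Of the list of 51 genes, those named have a mean of at least 10 normalized CPM and are the 3 with the smallest unadjusted p per contrast, or are the most abundant of a group. Hormad1, Stag3, Ankrd31, Terb1, Xlr4a and Xlr5c were named outside this rule. The members and lists were chosen with earlier results of these data known. Annotation was Gencode vM21, and promoter sequences were from RefSeq (GRCm38.p6). Rec8, Slxl1 and Sly were not analysed here.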

Additional observations from a re-analysis of the deposited data

How the results depend on the processing

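The difference of Trip13 between XX and XY was called in 19 of 20 alternatives, that of Trip13 between XY and XO in 10, and those of Sycp3 and Syce2 between XX and XO in 9 and 10. The number of members called in XX against XO, 2 as reported, was 1 with TMM factors of the genes, no filter on low counts, only the 2 genotypes compared, the replicate block, the block with TMM factors and DESeq2 with median-ratio factors, and 0 with scaling to the spike-in total. Without the filter this 1 member was Sycp1, while Sycp3 and Syce2 lost their calls (edgeR p of 0.0897 and 0.083), and with DESeq2 and spike-in factors Sycp1 joined them, for 3. It was 3 with 2 surrogate variables in edgeR or limma-voom in XX against XY, and 2 with only the samples numbered 2 and 3. In XY against XO it was 2 with TMM factors, with the block and TMM factors, with surrogate variables by either tool and with DESeq2 median-ratio factors. In the same contrast it was 0 without the filter, with only the 2 genotypes and with the samples numbered 2 and 3. For these 3 settings, the block with TMM factors, limma-voom and DESeq2, the share of all genes called is not given. It is also not given for most fits with 1 sample left out. The numbers of members called in those fits therefore have no background to be read against. Scaling to the spike-in total left 0 members called in each contrast. Of the listed genes it left 3, 1 and 0 called, against 3.12%, 2.58% and 1.24% of all tested genes. In XX against XY, 12 listed genes were called with surrogate variables by either tool, where edgeR called 20.4% of all tested genes. With the replicate block 8 were called, against 9.16% of all tested genes. With only the 2 genotypes 9 were called, and the share of all genes is not given for that fit. Leaving out each sample in turn gave 0 to 2, 1 and 0 to 1 members and 7 to 16, 2 to 9 and 1 to 12 listed genes in the 3 contrasts. The highest counts of listed genes came without XO1, where 36.9%, 11.1% and 32.1% of all tested genes were called. Division by length moved 4 members in the order, and 7 of 15 nearest genes remained with TMM factors. The cause of these changes was not tested.

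Signs turned only where the reported difference was not called, apart from Syce2. In XX against XO, with TMM factors Sycp2 was at 0.02, Tex12 at 0.40 and Trip13 at 0.14. With scaling to the spike-in total, Sycp2 was at 0.60, Tex12 at 0.95, Trip13 at 0.61 and Syce2 at 0.15, and Syce2 was at 0.36 in XX against XY. With 2 surrogate variables, Sycp2 was at 0.19 and Tex12 at 0.72 in edgeR and at 0.21 and 0.61 in limma-voom. With the replicate block, Tex12 was at 0.02, and with the block and TMM factors, Sycp2 was at 0.28, Tex12 at 0.44 and Trip13 at 0.16. With the samples numbered 2 and 3, Sycp2 was at 0.23, Tex12 at 0.31 and, in XX against XY, Sycp3 at -0.12. DESeq2 with median-ratio factors put Tex12 at 0.28 and Trip13 at 0.03. With a sample left out, values ran from -0.61 to 0.33 for Sycp2 and from -0.30 to 0.30 for Tex12 in XX against XO, and from -0.03 to 0.40 for Sycp3 in XX against XY.

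Whether the numbers pair samples was not settled. The deviations of same-numbered XX samples correlated at 0.468, -0.447 and 0.679 with XO samples and at 0.435, -0.0595 and 0.726 with XY samples. The replicate block gave Sycp3 an edgeR p of 0.0507 in XX against XO. It raised the number of all genes called from 1986 to 2527 there and from 638 to 1007 in XX against XY. Between XX and XO, XX2, XO1 and XO2 correlated best with another number, and between XX and XY, XX2, XY1 and XY2 did. Between XY and XO, XO2 did, at 0.721 with XY3 against 0.278 with XY2.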
